A study of Mus musculus with 3 samples.

Results

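Translation initiation and elongation factors were followed across the 3 arrays of the series. A probe set counted as a member when its 1 annotated gene symbol begins with Eif or Eef, the Eif2ak kinases included, or is Etf1, Gspt1 or Pabpc1. This gave 73 probe sets of 52 genes, out of 12588 probe sets that are not array controls. LNC, the malignant B-1 line used throughout, was derived from lymph node tissue of a mouse of the New Zealand Black strain aged 1 year. One array held RNA of LNC cells given an IL-10 antisense oligonucleotide at 20 µM, one held RNA of cells given a scrambled version of it at 20 µM, and one held RNA of untreated cells. RNA was taken at 24 h. The study thus has 1 array per group, and all 3 groups are the same line, so no replicate check exists and no test was made. The labels do not say whether 1 culture or several went onto an array.

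Translation begins when eIF2 brings the initiator tRNA to the small ribosomal subunit, while eIF3 and eIF1 prepare that subunit and eIF4 factors draw the capped mRNA onto it. Phosphorylation of eIF2 by the Eif2ak kinases blocks its exchange factor eIF2B and lowers protein synthesis under stress, whereas the Eif4ebp proteins hold back the cap-binding protein eIF4E until mTOR phosphorylates them. The elongation factors then carry tRNAs to the ribosome and move it along, and Etf1 with Gspt1 releases the finished chain. Proliferating and malignant B cells are known for a high demand on this machinery.

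Values are intensities on a linear scale after each array was brought to the same trimmed mean, and a difference is the log2 intensity of 1 array less that of another. A noise floor of 595.9, from the scatter of values below 0, was applied before logarithms. Each difference was read against a yardstick of error. It is the size of difference that 95% of the 300 probe sets nearest in mean level stayed under when the scrambled array was set against the untreated one, and it holds any effect of the scrambled oligonucleotide. Between those controls the share beyond it is set by its own construction. Intensities of different probe sets cannot be set against each other as RNA amounts, since each probe set has its own response. Where 3 values stand together with no array named, they are in the order labelled-antisense, scrambled, untreated.

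The targeted gene, Il10, read 13946 on the labelled-antisense array, 5616 with the scrambled oligonucleotide and 5164 in untreated cells, against the direction of a loss of its RNA, so directions below rest on that label. Of the B cell markers, 5 of 7 genes measured were above the floor on all arrays, among them Cd79a, Cd79b and Ms4a1. The summed intensity of that list was 71582 on the labelled-antisense array, 97633 with the scrambled oligonucleotide and 96635 in untreated cells, and its part in the differences below was not tested. In RNA of a whole culture, fewer cells of a type and less RNA per cell cannot be told apart. Of the B cell markers, Cd22 and Cd5, which marks many B-1 cells, were below the floor on the 3 arrays. Below it as well were the T cell genes Cd3d, Cd3e, Cd3g and Cd8a, the NK cell genes Gzma and Ncr1, and the macrophage genes Adgre1, Itgam and Lyz2. Above it on all arrays were 1 of 3 plasma cell genes, Jchain, 1 of 5 T cell genes, Cd4, 1 of 5 macrophage genes, Cd68, and 1 of 3 fibroblast genes, Col1a1, but not the 1 red cell gene measured. Bacterial spike-in controls were lower on the labelled-antisense array, so scaling to them would add 0.63 to each log2 difference from untreated above the floor and 0.51 to each difference from scrambled. It would add 0.12 to the scrambled minus untreated differences. Differences below are thus relative to each array's own common level.

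Of the 73 members, 52 probe sets of 43 genes passed the filter, meaning that at least 1 of the 3 values lay above the floor. That is 71.2% of members, where 48.7% of all probe sets passed. On all 3 arrays 48 members were above the floor, 4 were on 1 or 2 arrays, and 21 were below it on every array. The members past the filter differed little between the arrays. Of the 48 above the floor throughout, 37 had their 3 values within 1.3-fold of each other and 44 within 1.5-fold. The 37 make 77.1%, against 49.5% of all probe sets above the floor on the 3 arrays. Brighter probe sets scatter less, and among those of mean intensity above 4000 the shares were 86.7% of 30 members and 68.0% of all probe sets.

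**Figure D1:**
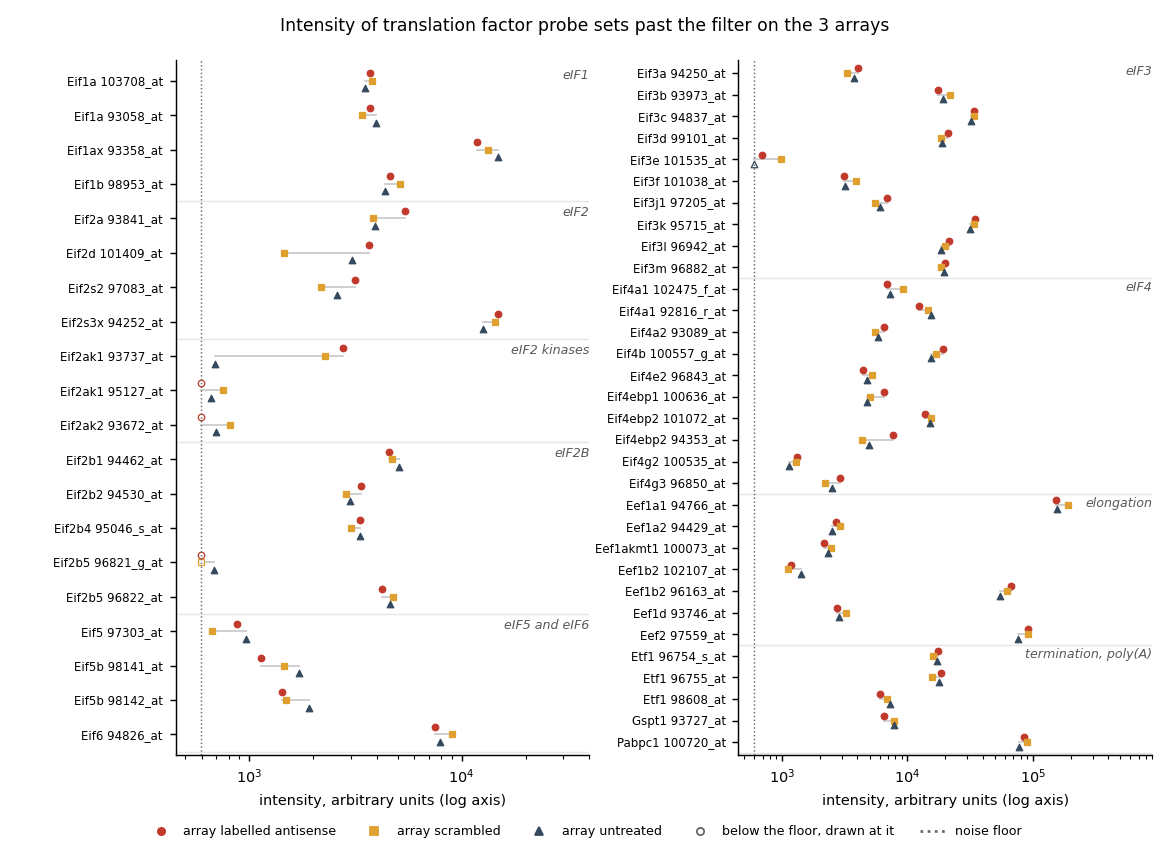
Intensity (horizontal log axis, arbitrary units) of the 52 translation factor probe sets past the filter, grouped by class, with 1 point per array and open points for values below the noise floor of 595.9 (dotted line). Most rows are narrow; the widest are Eif2ak1, at 687 untreated against 2283 and 2765, and Eif2d, at 1457 scrambled against 3065 and 3683.

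Few members were apart by a factor of 2 or more, and the shares of all probe sets given beside them are not matched for level. Of 1591 probe sets of mean intensity above 4000, 11 were at least 2-fold higher on the labelled-antisense array than untreated and 7 lower. Among the 30 members at that level it was 0. On the labelled-antisense array against untreated, 1 of 52 members was at least 2-fold apart, where 4.85% of all 6127 probe sets past the filter were. Against scrambled it was also 1 of 52, where 6.02% of all were. Between the scrambled and untreated arrays it was 2 of 52, or 3.85%, beside 3.10% of all. The members involved were Eif2ak1 and Eif2d alone. The yardstick was exceeded by 2 members against untreated, 3 against scrambled and 2 between the controls, where it was exceeded by 8.96%, 11.1% and 4.08% of all probe sets. In both comparisons of the labelled-antisense array, and in the same direction, 1 of 52 members exceeded it, a probe set of Eif4ebp2, beside 5.26% of all. Of the 52 members, 22 were higher on the labelled-antisense array than on either control, or 42.3% beside 37.2% of all, and 19 were lower than either, or 36.5% beside 32.0%. With scaling to the spike-in controls these counts became 50 and 0. The median difference of the members was 0.04 against untreated, 0.00 against scrambled and 0.03 between the controls, and that of all probe sets past the filter was 0.00 in each.

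**Figure D2:**
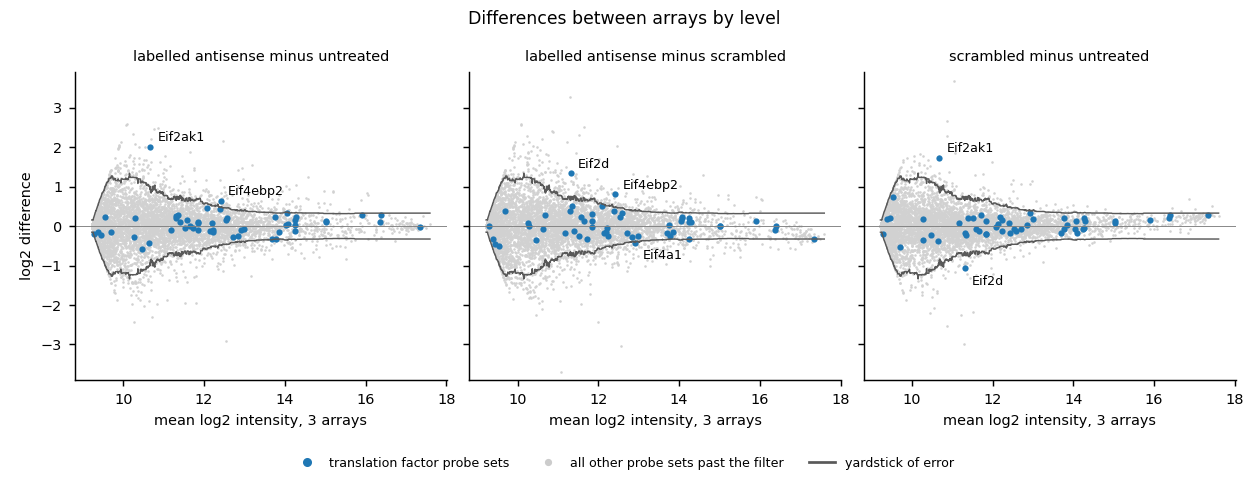
Log2 difference between arrays (vertical axis) against mean log2 intensity over the 3 arrays (horizontal axis) for the 52 translation factor probe sets (blue) and all other probe sets past the filter (grey), with the yardstick of error as lines. The named points are the members beyond the yardstick, 2 in the left panel, 3 in the middle and 2 in the right.

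The 4 kinases that phosphorylate eIF2 answer to different stresses, and 1 of them, Eif2ak1, held the widest difference of the family. Eif2ak1 encodes HRI, the kinase activated by heme shortage and mitochondrial stress. Its probe set 93737_at read 2765 on the labelled-antisense array, 2283 with the scrambled oligonucleotide and 687 in untreated cells. Both oligonucleotide arrays were thus high and the untreated array was little above the floor. The log2 differences from untreated were 2.01, or 4.02-fold, for the labelled-antisense array and 1.73, or 3.32-fold, for the scrambled array, against a yardstick of 0.87. The 2 oligonucleotide arrays differed by 0.28 from each other, within it. The second Eif2ak1 probe set, 95127_at, did not show this. It read 585, 751 and 661 in the same order, with the first value below the floor and the others near it, so the difference rests on 1 probe set.

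The other eIF2 kinases were near or below the floor. Eif2ak2, which encodes PKR, the kinase of double-stranded RNA and an interferon-induced gene, read 499 on the labelled-antisense array, 812 with the scrambled oligonucleotide and 701 in untreated cells. Its differences of -0.23 from untreated and -0.45 from scrambled were computed against the floor and lay within the yardstick of 0.74. Eif2ak3, which encodes PERK, the kinase of endoplasmic reticulum stress, read 419, 372 and 503. Eif2ak4, which encodes GCN2, the sensor of uncharged tRNA, read 315, 81.5 and 187. Neither was above the floor on any array, so no difference can be read for them.

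The genes grouped by symbol as eIF2 factors were on the higher side on the labelled-antisense array where they passed the filter. All 4 probe sets past the filter exceeded either control, where 37.2% of all probe sets did. The median difference was 0.27 from untreated and 0.51 from scrambled. The sign held with each scaling tried, and the second value was 0.27 when probe sets below the floor were kept. The 4 genes are Eif2a, Eif2d, Eif2s2 and Eif2s3x, of which only Eif2s2 and Eif2s3x encode eIF2 subunits. The alpha subunit gene, Eif2s1, had no member probe set. Only 1 of the 8 differences passed the yardstick, that of Eif2d from scrambled. Eif2s2, the beta subunit, read 3142 on the labelled-antisense array, 2190.2 with the scrambled oligonucleotide and 2579 in untreated cells. Eif2s3x, the gamma subunit that binds GTP and the initiator tRNA, read 14794, 14397 and 12572. Eif2a, a single-chain factor that can deliver initiator tRNA without eIF2, read 5424 against 3839.9 and 3919, with differences of 0.47 from untreated and 0.50 from scrambled under a yardstick of 0.56. The Y-linked copy of the gamma subunit, Eif2s3y, was below the floor on the 3 arrays, at 218 or less, in a family probe set.

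Eif2d, which serves initiation and ribosome recycling outside the eIF2 route, was low on the scrambled array alone. It read 1457 there, 3683 on the labelled-antisense array and 3065 in untreated cells. The labelled-antisense array was 2.53-fold above scrambled and 1.20-fold above untreated, and the scrambled array differed from untreated by -1.07. The yardstick at this level was 0.68, so the 2 differences that involve the scrambled array passed it. A second probe set of Eif2d was below the floor on all arrays and bears on none of this.

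The exchange factor eIF2B, which reloads eIF2 with GTP, stayed within the yardstick in every comparison. Its alpha subunit gene Eif2b1 read 4552 on the labelled-antisense array, 4704 with the scrambled oligonucleotide and 5090.4 in untreated cells. Eif2b2, the beta subunit, read 3347, 2861 and 2991, and Eif2b4, the delta subunit, read 3308, 3025 and 3318. Eif2b5, the catalytic epsilon subunit, had 1 probe set above the floor throughout, at 4226, 4747 and 4599. A second read 135, 513 and 682, above the floor in untreated cells alone, and the last was below it on the 3 arrays. The differences of the 5 probe sets past the filter ran from -0.19 to 0.16 against untreated and from -0.17 to 0.23 against scrambled.

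The subunits of eIF3, the largest initiation factor, were even across the arrays. Of 11 probe sets for 10 subunit genes, 10 passed the filter, none exceeded the yardstick in any comparison, and the median difference was 0.12 against untreated and 0.05 against scrambled. The second of these turned to -0.02 when arrays were scaled to the median of the values above the floor. Eif3c, a core subunit, read 34008 on the labelled-antisense array, 33972 with the scrambled oligonucleotide and 31916 in untreated cells. Eif3k read 34347, 34287 and 31334. For both genes the labelled-antisense array differed by 0.00 from scrambled. Eif3b, the scaffold subunit with an RNA recognition motif, went the other way from most, at 17592, 21951 and 19187, with -0.32 against scrambled just inside the yardstick of 0.33. Eif3d, the subunit that can itself bind the cap, read 21185, 18463 and 19037. The largest spread in this group was that of Eif3e at 696, 990 and 505, where the values surround the floor. Eif3j1, the loosely bound subunit, differed by 0.20 from untreated and 0.33 from scrambled. Eif3a, Eif3f, Eif3l and Eif3m differed by -0.04 to 0.23 from untreated and by -0.32 to 0.30 from scrambled.

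Of 18 eIF4 probe sets 10 passed the filter, of which 6 were higher and 4 lower on the labelled-antisense array than on either control, beside 37.2% and 32.0% of all. The median differences were 0.18 from untreated and 0.10 from scrambled, and the second was 0.24 over probe sets with the plain _at suffix. Both were 0.00 when probe sets below the floor were kept. The Eif4ebp inhibitors of eIF4E were higher on the labelled-antisense array in 2 of 3 probe sets past the filter. Eif4ebp1 read 6512 there, 5039 with the scrambled oligonucleotide and 4795 in untreated cells. Its differences of 0.44 and 0.37 from untreated and scrambled were inside the yardstick of 0.48. The probe set 94353_at of Eif4ebp2 read 7640.2 on the labelled-antisense array, 4357 with the scrambled oligonucleotide and 4911 in untreated cells. It was 1.56-fold above untreated and 1.75-fold above scrambled, log2 differences of 0.64 and 0.81 that passed the yardstick of 0.48. Another Eif4ebp2 probe set, 101072_at, differed by -0.14 and -0.16 in the same comparisons, reading 13770.1, 15397 and 15181. The 2 probe sets of this gene thus disagreed, and a further one, at -46.8, -261 and -82.4, was below the floor.

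The partner of these inhibitors, the cap-binding protein gene Eif4e, was not above the floor. Its 2 probe sets read -235, 148 and 91.6, and 214, 52.9 and 246, so these arrays hold no measured level for it. Its relative Eif4e2, which binds caps in repression of mRNAs, read 4432 on the labelled-antisense array, 5262 with the scrambled oligonucleotide and 4758 in untreated cells. The adaptor gene Eif4enif1, which carries eIF4E into the nucleus, was below the floor as well.

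The RNA helicase Eif4a1 was beyond the yardstick against scrambled, as were Eif2d and Eif4ebp2. Its family probe set 102475_f_at read 6849.8 on the labelled-antisense array, 9245 with the scrambled oligonucleotide and 7302 in untreated cells. The difference from scrambled was -0.43 against a yardstick of 0.40, and it turned to 0.08 when arrays were scaled to the spike-in controls. The other Eif4a1 probe set, 92816_r_at, read 12324, 14661 and 15346, lower than both controls by -0.32 and -0.25. The suffix _f marks a probe set shared by similar genes, and _r one for which the design rules were relaxed. Eif4a2, the second helicase, read 6514 against 5522 and 5811, with differences of 0.16 from untreated and 0.24 from scrambled. Eif4b, the cofactor of the helicase, read 19323, 16916 and 15459 in 1 probe set and was below the floor in its other 3. The scaffold gene Eif4g3 read 2906, 2219.8 and 2524, and Eif4g2, a scaffold of cap-independent initiation, read 1306, 1293 and 1142. Eif4h, a relative of Eif4b, was below the floor.

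Of the factors that start-codon choice and subunit joining need, Eif5b was lower on the labelled-antisense array in both of its probe sets, at the scaling used. The first read 1138 on that array, 1454 with the scrambled oligonucleotide and 1713 in untreated cells. The second read 1420.4, 1484 and 1921. The differences from untreated of -0.59 and -0.44 were well inside yardsticks of 1.13 and 1.02 at this level. Eif5, which triggers GTP hydrolysis on eIF2, read 875, 669 and 969, and Eif6, which keeps the large subunit from joining early, read 7525, 8966 and 7935. The median over these 4 probe sets was -0.29 against untreated and -0.16 against scrambled, and with spike-in scaling it became 0.34 and 0.35. With 1 probe set per gene, where Eif5b counts once, the median against untreated was -0.15. Eif1ax, which helps the small subunit scan for the start codon, read 11785, 13255 and 14865, a difference of -0.34 from untreated under a yardstick of 0.35. Eif1b and the 2 probe sets of Eif1a differed by -0.15 to 0.12 from either control.

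The elongation factors were in 6 of 7 probe sets higher on the scrambled array than in untreated cells, where 49.6% of all probe sets past the filter were. Their median difference was 0.21, which fell to 0.10 with quantile normalization, and none exceeded the yardstick. Eef1a1, which carries aminoacyl-tRNAs to the ribosome, read 152537 on the labelled-antisense array, 190819 with the scrambled oligonucleotide and 156324 in untreated cells. The scrambled array was the high one, by 0.29 over untreated, and the labelled-antisense array was 0.32 below it and 0.04 below untreated. Eef2, the translocase, read 91179, 91735 and 75715, so here both oligonucleotide arrays were above untreated by 0.27 and 0.28. Eef1b2, an exchange factor subunit for eEF1A, read 67472, 61998 and 55251 in its brighter probe set and 1183, 1113 and 1423 in a dimmer one. The dimmer one was the 1 elongation probe set lower on the scrambled array. Eef1d, another exchange factor subunit, read 2754, 3268 and 2829.6. Eef1a2, a tissue-restricted form of eEF1A, read 2676, 2904 and 2499, and Eef1akmt1, a methyltransferase of eEF1A, read 2169, 2452 and 2321. Eef2k, the kinase that inhibits eEF2, was below the floor. Whether intensities as high as that of Eef1a1 were saturated was not tested.

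The release factor and poly(A)-binding genes had 5 probe sets past the filter, none beyond the yardstick, with a median of -0.10 against scrambled that spike-in scaling would turn. Pabpc1, the poly(A)-binding protein that joins the mRNA tail to eIF4G, read 84677 on the labelled-antisense array, 90667 with the scrambled oligonucleotide and 78159.8 in untreated cells. Its order on the 3 arrays is that of the scrambled array highest and the untreated lowest, by 0.21. Gspt1, the GTPase eRF3a, read 6505, 7876 and 7776, differences of -0.26 from untreated and -0.28 from scrambled within a yardstick of 0.40. Etf1, the stop-codon reader eRF1, read 17438, 16088 and 17085 in 1 probe set and 18462, 15796 and 17908 in a second. Another Etf1 probe set read 6031, 6829 and 7247, lower on the labelled-antisense array than on the controls. The remaining 2 were below the floor, at 113, 315 and -152 and at -492, -398 and -335.

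The mRNAs of eEF1A, eEF2, poly(A)-binding protein and ribosomal proteins are known to begin with a C and an unbroken run of pyrimidines, the 5′ terminal oligopyrimidine tract through which mTOR controls their translation. The promoter windows of RefSeq, 250 bases before to 50 after each annotated start on build GRCm38.p6, were available for 42 of the 52 genes. They were searched on the transcribed-sense strand for a C within 5 bases of the start that is followed by at least 5 bases that are all C or T, a rule chosen after the values were seen. Of the 57 member promoters 8 held it, or 14.0%, and of all 32851 promoters 10.2% did. The windows below run from 20 bases before to 20 bases after the start of some genes that hold the run. They are followed by Eef2, which has none at its annotated start. Eif2ak4, Eif2b2 and Eif2b5 also hold the run and are not printed. Between scrambled and untreated, Eif2b2 differed by -0.06 and Eif2b5 by 0.05, and Eif2ak4 was below the floor. Capitals mark the C and its pyrimidines.
Eef1a1, chr9:78481705-78481744, minus strand: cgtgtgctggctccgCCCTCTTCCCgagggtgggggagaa
Eif3f, chr7:108934395-108934434, plus strand: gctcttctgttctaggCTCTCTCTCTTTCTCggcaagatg
Eif3l, chr15:79075203-79075242, plus strand: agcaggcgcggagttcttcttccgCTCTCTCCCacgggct
Eif2s3x, chrX:94212632-94212671, minus strand: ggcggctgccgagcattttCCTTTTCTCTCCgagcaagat
Eif2s3y, chrY:1010575-1010614, plus strand: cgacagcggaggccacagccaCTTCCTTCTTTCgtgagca
Eef2, chr10:81176611-81176650, plus strand: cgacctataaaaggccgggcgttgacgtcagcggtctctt
Both gamma subunit genes of eIF2 have a run of 11 pyrimidines after the C by this rule, and Eif3f has the longest, of 14. With 1 probe set per gene, 5 of the 6 genes with the run past the filter were higher on the scrambled array than in untreated cells, with a median of 0.16 and a range of -0.06 to 0.29. Of the 28 genes past the filter without the run, 13 were higher, with a median of -0.04. Among all probe sets past the filter the share was 49.6%. The difference between genes with and without the run was not tested, and all values within each group come from the same 2 arrays. Quantile normalization, which lowered the elongation median between the controls from 0.21 to 0.10, was not run for this split. An annotated start can lie away from the true one, so a marked run need not be the start of the mRNA. Eef2, whose mRNA is known to begin with the tract, counted among the genes without the run.

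**Figure D3:**
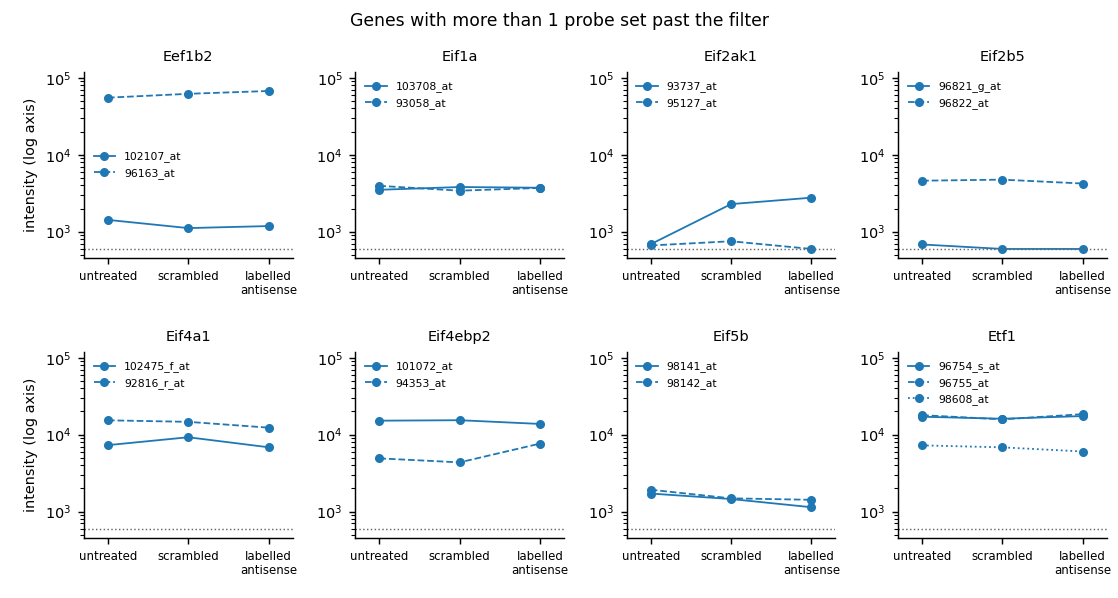
Intensity (vertical log axis, arbitrary units) on the untreated, scrambled and labelled antisense arrays for the 8 genes with more than 1 probe set past the filter, with 1 line per probe set and values below the noise floor drawn at it (dotted). Lines within a gene run alike for Eif5b, while for Eif2ak1 and Eif4ebp2 1 probe set moves and the other does not.

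Of the 52 genes, 13 had more than 1 member probe set and 8 had more than 1 past the filter. In the comparison with untreated, the probe sets of 3 of these 8 genes went the same way, Eif2b5, Eif4a1 and Eif5b. Against scrambled it was also 3 of 8, Eef1b2, Eif4a1 and Eif5b. The dimmer Eif2b5 probe set past the filter was above the floor in untreated cells alone. Its direction against untreated was thus fixed by the filter, and that gene does not count as agreement. Eif4a1 and Eif5b were the genes lower on the labelled-antisense array than on either control in every probe set past the filter, at the scaling used. The probe sets of Eif1a, a relative of Eif1ax, read 3726, 3806 and 3504 and 3703, 3411 and 3942. They differed by 0.09 and -0.09 from untreated, which is within the yardstick.

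Genes known to be widely expressed were among those without a value above the floor, which were 9 of 52. They include Eif5a, which helps the ribosome past proline stretches, at -483 on the labelled-antisense array, -847 with the scrambled oligonucleotide and -756 in untreated cells. Eef1g, a subunit of the eEF1 exchange complex, read 215, 91.3 and 235. Beside them stand Eif4e, Eif4h, Eif4enif1, Eef2k, Eif2ak3, Eif2ak4 and Eif2s3y. This first version of the array is known to carry some faulty probe sets, and whether these are among them was not tested, so a value below the floor is not a measure of absence.

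Other genes that act on this machinery were taken from lists. Every negative list median below for the labelled-antisense array became positive, between 0.41 and 0.57, with scaling to the spike-in controls. In the list of the integrated stress response, the program that follows eIF2 phosphorylation, 11 probe sets of 7 genes passed the filter. The median difference was 0.00 against untreated, -0.03 against scrambled and 0.02 between the controls. The yardstick of both controls was passed by 1 probe set, beside 5.26% of all probe sets past the filter. Ddit3, which encodes the stress transcription factor CHOP, read 2559 on the labelled-antisense array, 2399 with the scrambled oligonucleotide and 1329.9 in untreated cells. Both oligonucleotide arrays were above untreated, by 0.94 and 0.85, which is beyond the yardstick of 0.82. Asns, the asparagine synthetase gene and a target of Atf4, showed the same order at 2595, 2537 and 1704, within its yardstick of 0.70. Atf4 itself, whose mRNA is translated when eIF2 is phosphorylated, read 14916, 15782 and 12399.6, and 0.35 between the controls was slightly beyond its yardstick of 0.33. Trib3 also had the untreated array low, below the floor, and read 702 and 714 on the oligonucleotide arrays. Its differences from untreated, 0.24 and 0.26, lay within the yardstick of 0.57. The list as a whole did not have the untreated array low. Atf3, a stress-induced transcription factor, was highest in untreated cells in its brighter probe set, at 1633, 1745 and 2063. Ppp1r15b, a subunit of the phosphatase that reverses eIF2 phosphorylation, read 3768, 3490 and 3755. Dnajc3, an inhibitor of PERK and PKR, was low on the labelled-antisense array in its brightest probe set, at 1821 against 3128 and 3191. The differences of -0.81 from untreated and -0.78 from scrambled passed the yardstick of 0.75. A second probe set of it differed by -0.63 and -0.51, within the yardstick, and 2 dimmer ones read 954, 1039 and 891, and 566, 594 and 992.

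In the list of mTOR and MNK signalling with partners of poly(A)-binding protein, 13 probe sets of 10 genes passed the filter, and the median difference was -0.06 from untreated and 0.13 from scrambled. Of these, 2 exceeded the yardstick of both controls, Pabpc4 and Mknk1, beside 5.26% of all probe sets past the filter. Mknk1 passed the filter through the labelled-antisense array alone, so its direction was fixed by the filter. Pabpc4, an inducible relative of Pabpc1, read 12769 on the labelled-antisense array, 6877 with the scrambled oligonucleotide and 7369 in untreated cells, or 1.73-fold and 1.86-fold above untreated and scrambled. Pabpc1 differed by 0.12 and -0.10 in the same comparisons. A second Pabpc4 probe set was below the floor on the 3 arrays, at 137, 109 and 237. Mknk1, a kinase of eIF4E, read 1558 against 565 and 520, both below the floor, and was at least 2.61-fold higher. Mknk2, its relative, read 1282, 1865 and 2911 in a dimmer probe set, which is -1.18 from untreated, and 9256, 11727 and 9969.6 in a brighter one, which is -0.11. Paip2, which displaces poly(A)-binding protein from mRNA, read 7319, 5199.5 and 8788, with the scrambled array low by -0.76 from untreated.

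**Figure D4:**
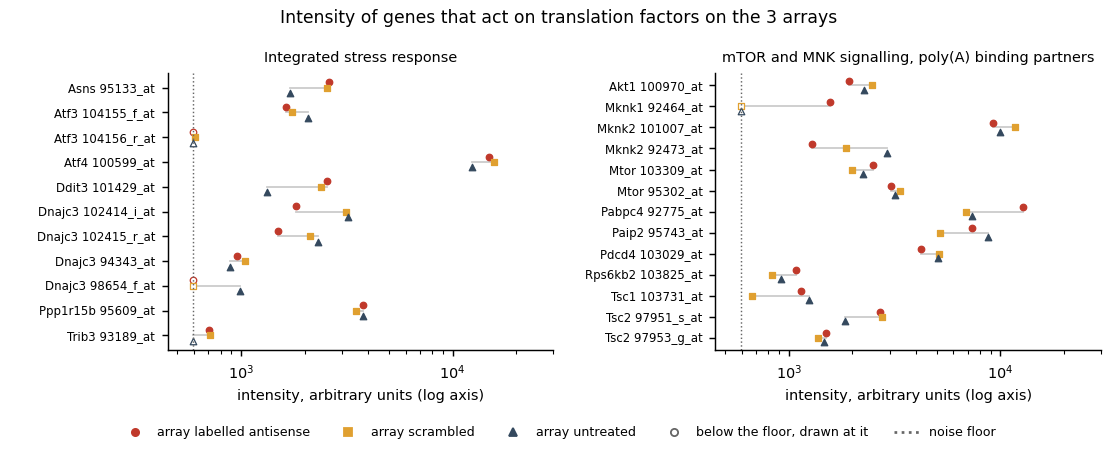
Intensity (horizontal log axis, arbitrary units) of the 11 integrated stress response probe sets (left) and the 13 probe sets of mTOR and MNK signalling and poly(A)-binding partners (right) past the filter, with 1 point per array and open points for values below the noise floor (dotted). Ddit3 and Asns have the untreated array low, and Pabpc4 and Mknk1 have the labelled-antisense array high.

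Cytosolic ribosomal proteins, the other products that share the oligopyrimidine tract, had 31 probe sets past the filter. Of these, 26 were higher on the scrambled array than in untreated cells, beside 49.6% of all probe sets past the filter. Among all probe sets of mean intensity above 4000 it was 875 of 1591. The ribosomal median was 0.21, which fell to 0.03 with quantile normalization. Against untreated the labelled-antisense array was higher in 20 and lower in 10, with a median of 0.06. Of all 6127 probe sets past the filter 2986 were higher in that comparison. Against scrambled the ribosomal probe sets were higher in 10 and lower in 21, with a median of -0.08, which became 0.00 with quantile normalization. Of all probe sets past the filter 2947 were higher and 2964 lower than scrambled. Between the controls 3 of the 31 exceeded the yardstick, beside 4.08% of all, and not in the same direction. Rpl41 differed by 0.68 and a probe set of Rps28 by 0.331, just over its yardstick of 0.328. A family probe set of Rpl19 differed by -0.76. Rps27, a small-subunit protein, was the 1 beyond the yardstick of both controls, at 1307 on the labelled-antisense array against 3821 with scrambled and 2561 untreated. Its differences were -0.97 from untreated and -1.55 from scrambled, beyond the yardstick of 0.70. Of 20 probe sets of aminoacyl-tRNA synthetases past the filter, 10 were higher and 10 lower between the controls, and the medians were -0.12 against untreated and -0.08 against scrambled. Of these, Cars, the cysteine enzyme, was the 1 beyond the yardstick of both controls, at 1616 on the labelled-antisense array against 3182 and 2727. Mitochondrial translation factors gave 4 probe sets past the filter, none beyond the yardstick of both controls. Mtrf1l, a member of the mitochondrial release factor family, read 382 on the labelled-antisense array, 1498 with scrambled and 651 untreated. It was at least 2.51-fold lower than scrambled, and the difference of -1.33 exceeded the yardstick of 1.26. Between the controls it differed by 1.20, within the yardstick. Tufm, the mitochondrial elongation factor Tu, read 7472, 7069 and 8619.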

How the data were processed

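RNA of LNC cells was measured on 3 Affymetrix U74 version 1 arrays, 1 per group. The authors deposited 1 intensity per probe set on a linear scale, which can be negative, with the same trimmed mean on each array in the deposited values. The software was not given in the sources used here. Probe sets were named from GEO's platform annotation, with current symbols through the Entrez ID in RefSeq, which matched all 73 members.

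Arrays were scaled to a common trimmed mean (2% from each end) over 12588 probe sets that are not controls. Values were floored at 2 robust standard deviations of the values below 0, an intensity of 595.9, and logged to base 2. A probe set passed when any of its 3 values was above the floor. Members were described by differences, counts and medians in Python 3.11.15 with numpy 2.4.6 and pandas 2.3.3, tested on simulated data. The number of arrays limits the precision.

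The members and lists were chosen with earlier results of these data known. Named by rule were the eIF2 kinases, Eif4e, the Eif4ebp genes, Etf1, Gspt1, Pabpc1, members 2-fold apart or beyond the yardstick of both controls, the 6 brightest, and genes with several probe sets past the filter. Others named with values were chosen after their values were seen. Members listing several symbols were left out (1 probe set). Alternatives in scaling, floor, filter and choice of probe sets were run. The pyrimidine-run rule, the near-equal folds and the subset of mean intensity above 4000 were chosen after the values were seen, as were the list medians under other scalings.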

Additional observations from a re-analysis of the deposited data

How the results depend on the processing

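With 1 array per group, no left-out replicate could be run. No paired analysis was possible because each group has 1 array. Of 72 counts over the members under the alternatives, 66 were within 1.5 times the reported count, and 24 of 27 medians over all members moved by less than 0.1 on the log2 scale. The exceptions come from scaling to the spike-in controls, with 1 from the lower floor. Scaled to the spike-ins, the members' medians were 0.66 against untreated, 0.51 against scrambled and 0.16 between the controls, 50 members on the labelled-antisense array exceeded both controls and 0 fell below both, 4 were at least 2-fold higher in each of its comparisons, and 0 were at least 2-fold lower on the scrambled array than in untreated cells. The negative class medians of the labelled-antisense array became positive: against untreated 0.36 for the kinases, 0.57 for eIF2B, 0.34 for eIF5 with eIF6, 0.62 for eIF1 and 0.59 for elongation, and against scrambled 0.15 for the kinases, 0.35 for eIF5 with eIF6, 0.39 for elongation, 0.42 for eIF1 and 0.41 for termination and poly(A) binding. Between the controls eIF2B became 0.0285, eIF1 0.09 and termination 0.03, while eIF2 at -0.02 and eIF5 with eIF6 at -0.19 stayed negative. Eif4a1 in its family probe set became 0.0802 against scrambled. A floor of 1 robust standard deviation gave 1 member at least 2-fold lower than untreated, a dim Eif2b5 probe set, and 0.0810 for the kinases against scrambled. The kinases' medians rest on 3 probe sets and were 1.63 and 0.28 with a floor of 3 robust standard deviations, 2.01 and 0.28 with probe sets above the floor on all arrays, and 0.89 against untreated with 1 probe set per gene. Without the filter, probe sets below the floor enter at 0.00, and the kinase and eIF4 medians were 0.00 in both comparisons of the labelled-antisense array. The cause of these changes was not tested. Signal near the floor limits Eif2ak1, Eif2ak2, Eif3e and Eif5.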
